A study of Homo sapiens with 4 samples.

Results

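The 10 genes described here belong to the BCL2 family or act on it, and they set the threshold for the mitochondrial route of apoptosis. They were chosen by their gene name among the 17755 genes that the table of the study lists, and all 10 were found. RNA-Seq was performed on the established melanoma lines SK-MEL-28 and A375, with 4 libraries and 1 library per group, and the labels call their source melanoma tissue. SK-MEL-28 siNC and A375 siNC received a control siRNA, and SK-MEL-28 siLINC00622 and A375 siLINC00622 received siRNA against the long non-coding RNA LINC00622. All cells spent 6 h in DMEM without serum with the transfection reagent and 24 h in DMEM with serum afterwards. The labels give no modified allele for either line, and the knockdown was transient.

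Proteins of this family meet at the outer membrane of mitochondria. Survival proteins (BCL2, BCL-XL encoded by BCL2L1, MCL1, and BFL-1 encoded by BCL2A1) hold the effectors BAX and BAK in check. BH3-only proteins (BIM encoded by BCL2L11, BMF, PUMA encoded by BBC3, and NOXA encoded by PMAIP1) occupy the survival proteins, and free effectors then open pores through which cytochrome c leaves. In pigment cells BCL2A1 and BCL2 are known to be driven by MITF, the master transcription factor of the lineage. MCL1 and NOXA form a pair, since NOXA binds MCL1 and BFL-1 in particular. The question put to these genes was how survival and death genes were balanced in each line, and whether that balance moved with siLINC00622.

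Library totals ranged from 31269923 to 36384819 counts, of which between 99.7% and 99.8% fell on listed genes. LINC00622 went from 309 counts (siNC) to 135 (siLINC00622) in SK-MEL-28 and from 135 to 86 in A375, so it was lower in both siLINC00622 libraries. Of 8 pigment cell markers, all 8 were called higher in SK-MEL-28, as were 33.3% of all genes tested. The marker TYRP1 stayed under an FPKM of 1 in all 4 libraries. PMEL, a protein of the pigment granule, had 114297 and 142181 counts in SK-MEL-28 but 257 and 314 in A375, and TYR, the enzyme that starts melanin synthesis, had 17 and 22 counts in A375. SOX10, a lineage factor, was present in both lines, with an FPKM between 118 and 153 and a log2 difference of only 0.36. Of the markers of other cells, 0 of 4 leukocyte, 0 of 3 endothelial, 1 of 5 fibroblast and 2 of 4 keratinocyte genes were listed. PTPRC, PECAM1, COL1A1 and KRT5, which define these cells, were not among the listed genes. Of the keratinocyte genes, KRT14 had 6 and 2 counts in SK-MEL-28 against 494 and 504 in A375, a log2 difference of -6.76 ± 0.31 (SE, edgeR adjusted p = 3.34e-06), and KRT10 had between 1361 and 2069 counts in the 4 libraries. KRT14 thus moved with the lines, and its part in the results was not tested. The FPKM of the fibroblast gene ranged from 9.08 to 9.77 in SK-MEL-28 libraries and from 2.24 to 3.83 in A375 libraries. FPKM, the level that is scaled for gene length, was used wherever genes are compared with each other.

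The order of the BCL2 family genes differed between the lines, and values are given for siNC first and siLINC00622 second. In SK-MEL-28 the highest member was BCL2A1, at 38.8 and 36.9 FPKM. MCL1 followed with 27.5 and 26.1. This rank of BCL2A1 over MCL1 depends on the length scaling, since MCL1 had 5660 and 5538 counts against 1278 and 1256 for BCL2A1. BAX had 18.5 and 18.9 and BAK1 had 14.6 and 17.9, and these ranges do not overlap between neighbours. The lowest were BMF, with 1.73 and 1.51, and BBC3, with 1.33 and 1.48. In A375 the order was different. MCL1 led at 99.8 and 88.5 FPKM, which placed it above 98.2% and 97.9% of the listed genes. BAX came next with 51.2 and 55.4, and BAK1 (18.4 and 17.3) followed. BCL2L1 (15.6 and 16.9) and PMAIP1 (17.1 and 14.5) overlapped each other. BCL2A1 and BMF closed the order, both under an FPKM of 1 and with overlapping values.

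**Figure D1:**
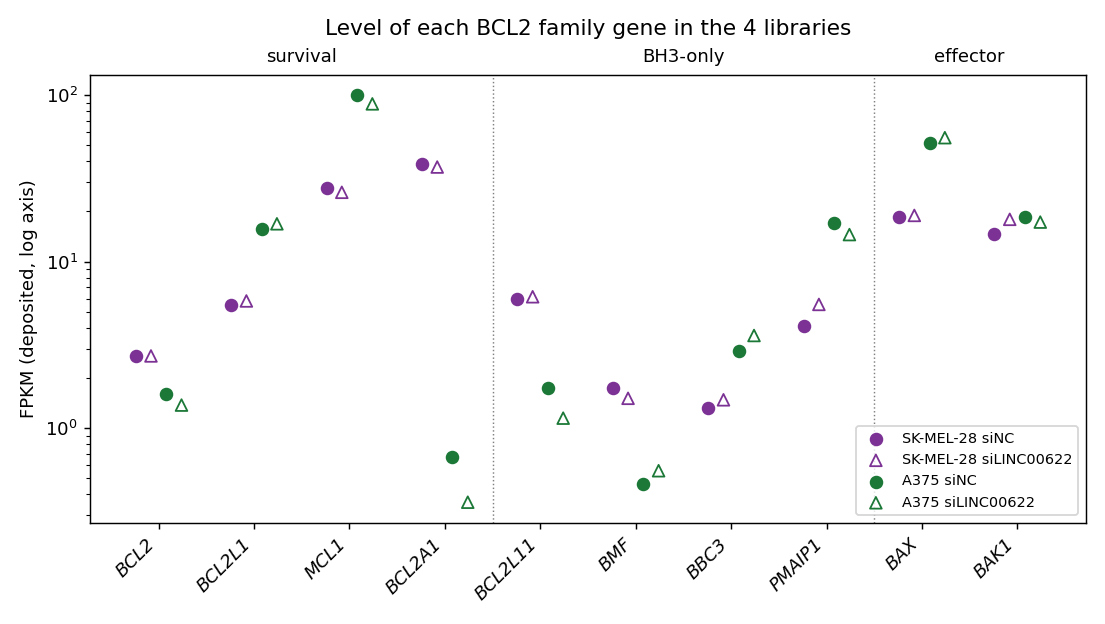
Deposited FPKM of the 10 genes (log axis) in the 4 libraries, coloured by cell line, with filled circles for siNC and open triangles for siLINC00622. BCL2A1 lies between 36.9 and 38.8 in SK-MEL-28 and between 0.359 and 0.675 in A375, whereas BAK1 lies between 14.6 and 18.4 in all 4 libraries.

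To test the difference between the lines, all 4 libraries were fitted with the line and the treatment as terms, which leaves 1 residual degree of freedom. The quasi-likelihood test of edgeR, adjusted over 16742 genes, called 4 members higher and 5 lower in SK-MEL-28. Of all genes tested, 33.3% were called higher and 34.4% lower in SK-MEL-28, so a call is common between these lines and nothing particular to the members is read from their count. The libraries of a line are its only repeats, and nothing in the labels says whether they came from separate cultures.

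BCL2A1 (ENSG00000140379), a gene of chromosome 15 (GRCh38, 79960889 to 79971446, minus strand), differed most among the members. It had 1278 and 1256 counts in SK-MEL-28 against 21 and 13 in A375. The libraries of the lines are far apart, and those of SK-MEL-28 nearly coincide. The log2 difference of SK-MEL-28 minus A375 was 6.38 ± 0.21 (SE, edgeR adjusted p = 8.13e-07), an 83.4-fold higher count. With the siNC libraries alone it was 5.89 (95% counting interval 5.40 to 6.72), and with the siLINC00622 libraries alone 6.63 (6.07 to 7.76). MITF moved with it, with 18955 and 18299 counts in SK-MEL-28 against 1182 and 1288 in A375, a log2 difference of 4.09 ± 0.09 (edgeR adjusted p = 2.42e-07), and its part in the level of BCL2A1 was not tested.

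The promoter of BCL2A1 is shown because it is the only one of the member promoters at hand with the extended E-box TCATGTG, a sequence that MITF is known to bind. The motif lies on the strand of the gene, from 26 to 20 bases before the RefSeq start (GRCh38.p14, chr15:79971204-79971233, minus strand), and is in capitals.
BCL2A1: tccatgtatcaTCATGTGtcataactcagt
A longer GENCODE 29 transcript of BCL2A1 covers these bases, so only 30 are printed. TCATGTG or its reverse complement CACATGA stands in 2.52% of the 35114 RefSeq windows of the 250 bases before a start, and in 1 of the 11 windows of 9 members. MCL1 was not matched in that table. A TATAAA lies in the same BCL2A1 window from 70 to 65 bases before the start. TATAAA or its reverse complement TTTATA stands in 10.7% of all windows and in 2 of the 11 member windows, 1 of BCL2A1 and 1 of BCL2L1. A match of letters is a description and not a site of binding.

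MCL1 (ENSG00000143384, chromosome 1 of GRCh38, 150574551 to 150579738, minus strand), a short-lived survival protein, ran the other way. It had 5660 and 5538 counts in SK-MEL-28 against 19412 and 20029 in A375. Each A375 library lay above both SK-MEL-28 libraries. The log2 difference was -1.64 ± 0.08 (SE, edgeR adjusted p = 4.56e-06), or 3.12-fold lower in SK-MEL-28. BCL2L1 (ENSG00000171552, chromosome 20, 31664452 to 31723989, minus strand) kept the same direction, with 760 and 832 counts in SK-MEL-28 against 2047 and 2574 in A375. Its log2 difference was -1.36 ± 0.10 (edgeR adjusted p = 2.69e-05). BCL2 (ENSG00000171791, chromosome 18, 63123346 to 63320128, minus strand), the founding member of the family, went with BCL2A1 instead, with 1134 and 1169 counts in SK-MEL-28 against 632 and 631 in A375. That is a log2 difference of 1.04 ± 0.11 (edgeR adjusted p = 0.000169). Among the survival genes, BCL2A1 and BCL2 were thus the higher pair in SK-MEL-28, and MCL1 and BCL2L1 in A375. BCL2L1 and MCL1 make splice forms of opposite function, and gene counts do not separate them. BCL2L1 also shares 1424 exonic bases with the gene ABALON of the other strand, which is not listed in the table.

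The BH3-only genes split in the same manner. BCL2L11 (ENSG00000153094, chromosome 2, 111119378 to 111168447, plus strand), which encodes BIM, a binder of all survival proteins, had 1312 and 1398 counts in SK-MEL-28 against 362 and 278 in A375. Its log2 difference was 2.26 ± 0.17 (SE, edgeR adjusted p = 2.83e-05), and its lowest SK-MEL-28 library lay well above its highest A375 library. BCL2L11 shares 727 exonic bases with the antisense gene MIR4435-2HG, which had 2613, 2347, 898 and 979 counts in SK-MEL-28 siNC, SK-MEL-28 siLINC00622, A375 siNC and A375 siLINC00622. The library kit is not stated to keep the strand, so reads of these genes cannot be told apart there. BMF (ENSG00000104081, chromosome 15, 40087890 to 40108892, minus strand), a BH3-only protein tied to the cytoskeleton, had 312 and 281 counts in SK-MEL-28 against 79 and 110 in A375. Its log2 difference was 1.83 ± 0.20 (edgeR adjusted p = 0.000177). It was 2.05 between the siNC libraries and 1.59 between the siLINC00622 libraries, while BCL2L11 had 1.95 and 2.57, so each treatment alone gave the same sign. BMF shares 461 exonic bases with BMF-AS1, an antisense gene that the table does not list.

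PMAIP1 (ENSG00000141682, chromosome 18, 59899948 to 59904306, plus strand) and BBC3 (ENSG00000105327, chromosome 19, 47220822 to 47232766, minus strand), which encode the remaining BH3-only proteins, were lower in SK-MEL-28. PMAIP1 had 295 and 413 counts in SK-MEL-28 against 1166 and 1155 in A375, and its log2 difference was -1.55 ± 0.17 (SE, edgeR adjusted p = 0.000191). Between the siNC libraries it was -1.88, and between the siLINC00622 libraries -1.23. BBC3 had 140 and 161 counts in SK-MEL-28 against 291 and 417 in A375, and its log2 difference was -1.04 ± 0.16 (edgeR adjusted p = 0.00111). For both genes the lines do not overlap.

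The effectors differed from each other. BAX (ENSG00000087088, chromosome 19, 48954815 to 48961798, plus strand) had 1584 and 1673 counts in SK-MEL-28 against 4143 and 5219 in A375, a log2 difference of -1.34 ± 0.09 (SE, edgeR adjusted p = 2.05e-05). BAK1 (ENSG00000030110, chromosome 6, 33572547 to 33580293, minus strand) had 1072 and 1355 counts in SK-MEL-28 against 1275 and 1389 in A375, and here the lines overlapped. Its log2 difference was 0.03 ± 0.12 (edgeR adjusted p = 0.827), and its sign turned with the treatment, at -0.16 (95% counting interval -0.27 to -0.04) between the siNC libraries and 0.22 (0.11 to 0.33) between the siLINC00622 libraries. BAX was therefore 1.26 and 1.06 times the FPKM of BAK1 in SK-MEL-28 libraries but 2.78 and 3.21 times in those of A375. The pseudogene BAK1P1 is listed with 15 to 28 counts per library.

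**Figure D2:**
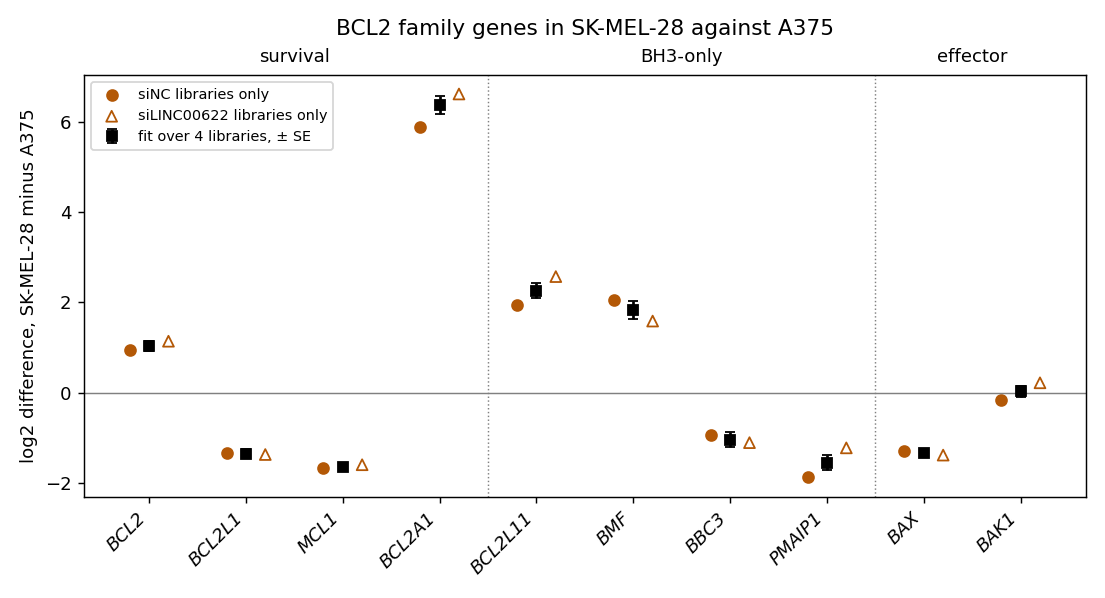
Log2 difference of SK-MEL-28 minus A375 for each gene. Squares are the edgeR fit over 4 libraries with its SE, circles the siNC libraries alone and triangles the siLINC00622 libraries alone. BCL2, BCL2A1, BCL2L11 and BMF lie above 0, BCL2L1, MCL1, BBC3, PMAIP1 and BAX lie below 0, and BAK1 lies on either side.

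BAX was also the member with the most CACGTG, the E-box bound by the MYC, USF and MITF families. The 250 bases before its RefSeq start are shown because they hold 4 copies (GRCh38.p14, chr19:48954625-48954874, plus strand), in capitals.
BAX: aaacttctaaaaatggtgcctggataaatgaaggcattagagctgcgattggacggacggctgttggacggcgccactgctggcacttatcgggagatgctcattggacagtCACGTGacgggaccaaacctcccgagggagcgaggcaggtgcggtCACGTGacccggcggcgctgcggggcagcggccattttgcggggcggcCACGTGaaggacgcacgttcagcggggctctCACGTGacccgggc
These copies begin 138, 93, 45 and 14 bases before the start. GENCODE 29 starts BAX at 48954815 with a transcript that retains an intron, so the copies at 45 and 14 bases lie inside that transcript. CACGTG, which reads the same on both strands, stands in 6.35% of the 35114 windows, and 5 of those windows (0.0142%) hold at least 4 copies. Among the members it was found also in the window of BBC3, 232 bases before the start. MYC had 5962 and 6740 counts in SK-MEL-28 against 606 and 667 in A375, and it was thus higher, like MITF, in the line where BAX was lower. The part of these factors in the level of BAX was not tested.

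Summed FPKM gave the balance of both sides. The 4 survival genes summed to 74.5 (siNC) and 71.5 (siLINC00622) for SK-MEL-28 but to 118 and 107 for A375. The 6 death genes summed to 46.2 and 51.5 for SK-MEL-28 but to 91.8 and 92.5 for A375. Survival over death came to 1.61 and 1.39 for SK-MEL-28 against 1.28 and 1.16 for A375, so the survival side was the larger in all 4 libraries. On the log2 scale these are 0.69 and 0.47 for SK-MEL-28 against 0.36 and 0.21 for A375. By FPKM, the survival sum rested on a different leading gene in each line. BCL2A1 made up 52.1% and 51.7% of the survival sum in SK-MEL-28 but 0.574% and 0.335% in A375, where MCL1 made up 84.8% and 82.6%. Counts, which are not scaled for length, put MCL1 first in SK-MEL-28 too, with 5660 and 5538 against 1278 and 1256 for BCL2A1. On the death side, BAX held 40.0% and 36.7% in SK-MEL-28 against 55.8% and 59.9% in A375. Within the BH3-only sum, BCL2L11 held 45.5% and 41.9% in SK-MEL-28 against 7.84% and 5.79% in A375, and PMAIP1 31.1% and 37.7% against 76.9% and 73.3%. Without MCL1 the log2 balance was 0.024 and -0.18 for SK-MEL-28 against -2.36 and -2.32 for A375. Which line had the higher balance depended on the unit and the genes. Without BAX it was 1.43 and 1.13 for SK-MEL-28 against 1.53 and 1.53 for A375, and by CPM it was 0.91 and 0.74 against 1.60 and 1.44, so A375 was then the higher. With the effectors left out it was 2.51 and 2.29 against 2.41 and 2.43, and the order turned with the treatment. These are sums of RNA levels with 1 library per group, and protein levels were not measured by RNA-Seq.

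**Figure D3:**
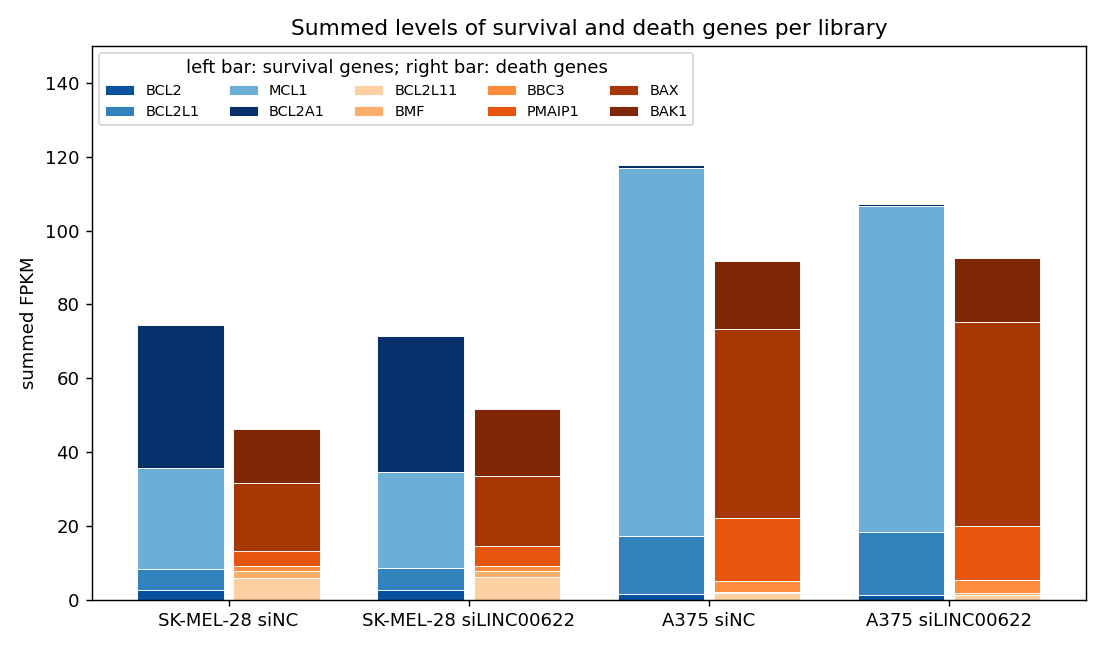
Summed FPKM of the survival genes (left bar) and the death genes (right bar) in each library, stacked by gene. The survival bar is taller in each of the 4 libraries, with 74.5 against 46.2 in SK-MEL-28 siNC and 118 against 91.8 in A375 siNC, and BCL2A1 fills 52.1% of the first and 0.574% of the second.

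The ratios of the BCL2 family genes after LINC00622 knockdown lay between -0.81 and 0.45 on the log2 scale. Within a line there is 1 library per treatment, so each log2 ratio of siLINC00622 over siNC is given with a 95% Clopper-Pearson interval, which covers counting error only, and has no replicate check. In SK-MEL-28, 0 of the 10 members were past 1.5-fold in either direction, and 11.1% of the 15442 genes with at least 10 counts were. In A375, 2 of the 10 were past it, against 8.88% of 16021 genes, and both were lower. The median log2 ratio of the members was 0.05 for SK-MEL-28 but -0.13 for A375, beside medians over all genes tested of -0.0037 and -0.00036.

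Those past it in A375 were BCL2A1 and BCL2L11. BCL2A1 had 21 and 13 counts there, which is a log2 ratio of -0.81 (-2.03 to 0.16), and this interval includes 0, so a change was not detectable at this depth. BCL2L11 had 362 and 278 counts, a log2 ratio of -0.59 (-0.83 to -0.37) that sits at the limit of 0.58. In SK-MEL-28 BCL2L11 had a log2 ratio of 0.06 (-0.05 to 0.17). The ratio of BCL2L11 in A375 was -0.35 on the log2(FPKM + 1) scale.

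PMAIP1 had the highest ratio of the members in SK-MEL-28, from 295 to 413 counts, a log2 ratio of 0.45 (0.24 to 0.68). BAK1 followed there with 0.31 (0.19 to 0.42). In A375 the log2 ratio of PMAIP1 was -0.23 (-0.35 to -0.11) and that of BAK1 was -0.09 (-0.20 to 0.02). BBC3 had a ratio above 0 in both lines, with 0.17 (-0.17 to 0.51) in SK-MEL-28 and 0.30 (0.09 to 0.53) in A375. BAX had 0.05 (-0.05 to 0.15) and 0.12 (0.06 to 0.18), and BCL2L1 had 0.10 (-0.04 to 0.24) and 0.12 (0.03 to 0.20). MCL1 had a ratio below 0 in both lines, with -0.06 (-0.12 to -0.01) and -0.17 (-0.20 to -0.14). Over all genes tested, the median absolute log2 ratio was 0.19 for SK-MEL-28 and 0.18 for A375. The ratios of BAX, BCL2L1 and MCL1 were smaller in size than that in both lines. The survival genes BCL2 and BCL2A1 stayed at 0.01 (-0.11 to 0.13) and -0.06 (-0.17 to 0.06) in SK-MEL-28, and BCL2 had -0.22 (-0.38 to -0.06) in A375. BMF had -0.18 (-0.42 to 0.06) and 0.26 (-0.17 to 0.70).

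**Figure D4:**
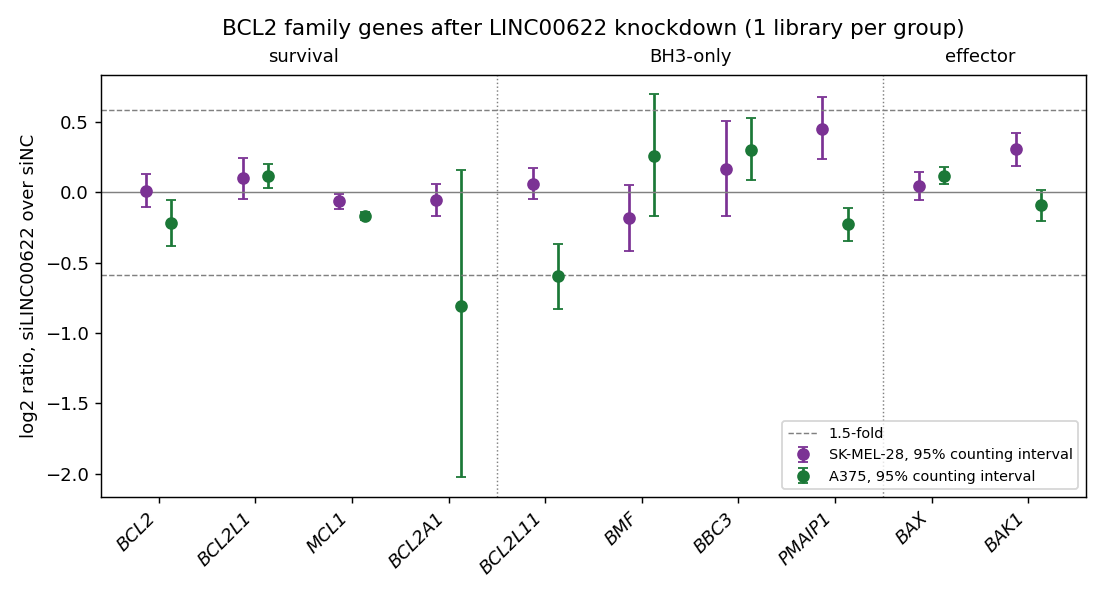
Log2 ratio of siLINC00622 over siNC for each gene in SK-MEL-28 and A375, with 95% counting intervals, and dashed lines at 1.5-fold. BCL2A1 at -0.81 and BCL2L11 at -0.59, both in A375, lie past the lower line, and 0 genes lie past the upper line.

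Across the lines, with the line as a block, 0 of the 10 members were called by the quasi-likelihood test of edgeR, against 0.448% of 16742 genes. At an unadjusted p under 0.05, 0 of the 10 members passed with edgeR, against 14.5% of 16742 genes. Nothing particular to the members is read from this count. With limma 0 members were called as well. DESeq2 called 0 of those to which it gave an adjusted p, and it gave none to BMF and BBC3. The largest log2 difference of siLINC00622 minus siNC was that of BBC3, at 0.26 ± 0.16 (SE, edgeR adjusted p = 0.529). That of BCL2L11 was -0.22 ± 0.16 (edgeR adjusted p = 0.597), and that of MCL1 was -0.10 ± 0.08 (edgeR adjusted p = 0.606). By comparison RRAGD, the gene on which the study centres, had a log2 difference of -1.82 ± 0.20 (edgeR adjusted p = 0.0398), and LINC00622 one of -1.05 ± 0.20 (edgeR adjusted p = 0.101). With at least 50 counts, or with no cell line block, 0 genes were called, and with library totals or limma the 1 gene called was a higher one, so the call of RRAGD was lost under these 4 alternatives. A value that misses the threshold with 1 residual degree of freedom does not show that the members stayed the same. The log2 balance of survival over death fell by 0.21 for SK-MEL-28 and fell by 0.15 for A375 with siLINC00622. For A375 this direction rested on MCL1 and the effectors, since the balance went from -2.36 to -2.32 without MCL1 and from 2.41 to 2.43 with the effectors left out, and it stayed at 1.53 without BAX.

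The target sequences listed for the siRNAs are shown because their seed can also pair with the 3′ UTR of other transcripts. Capitals mark the bases that face positions 2 to 8 of the guide strand, and which of these siRNAs was used for sequencing is not stated in the sources used here.
siLINC00622_1: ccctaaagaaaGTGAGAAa
siLINC00622_2: ggcaacctctaATTGACTt
The site GTGAGAA of siLINC00622_1 stands in the longest GENCODE 29 3′ UTR of 2 of the 10 members, BCL2L11 with 1 copy and BMF with 3 copies, and in 14.6% of 12362 genes. The site ATTGACT of siLINC00622_2 stands in 0 of the 10 members and in 11.6% of genes. The copy of BCL2L11 lies on the plus strand at chr2:111167325-111167353 (GRCh38), and the first of BMF on the minus strand at chr15:40091519-40091547.
BCL2L11: gtttgatgccaGTGAGAAactcagtctgg
BMF: tgtctgtgatgGTGAGAAttcccaagggc
The log2 ratio of BCL2L11 was -0.59 for A375 but 0.06 for SK-MEL-28, and that of BMF was 0.26 for A375 but -0.18 for SK-MEL-28. Both genes thus had ratios of opposite sign in the lines, and the part of the sites was not tested.

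Further genes of the pathway were counted in lists, beside which SK-MEL-28 had 33.3% of all genes tested higher and 34.4% lower, so nothing particular to a list is read from its count. Of 11 listed genes of the BCL2 family and other BH3 proteins, 7 had a higher and 1 a lower level in SK-MEL-28, and 0 were called for the treatment. HRK, a BH3-only protein, had 163 and 204 counts in SK-MEL-28 against 22 and 38 in A375, a log2 difference of 2.81 ± 0.23 (SE, edgeR adjusted p = 4.28e-05). BCL2L13, a mitochondrial family member, had 1.62 ± 0.10 (edgeR adjusted p = 1.47e-05), and BOK, an effector relative of BAX, had 1.00 ± 0.15 (edgeR adjusted p = 0.000786). Of 10 genes for partners and turnover of the family, 4 were higher and 2 lower. VDAC2, the channel that brings BAK and BAX to mitochondria, was higher by 0.82 ± 0.08 (edgeR adjusted p = 0.000139), DYNLL1, the light chain that tethers BIM, by 0.38 ± 0.08 (edgeR adjusted p = 0.00488), and TRIM17, a ubiquitin ligase, differed by -1.25 ± 0.26 (edgeR adjusted p = 0.00417).

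Downstream of the mitochondria, SK-MEL-28 had 4 of 13 genes of the apoptosome and caspases higher and 2 lower. CYCS, cytochrome c, was higher by 1.11 ± 0.10 on the log2 scale (SE, edgeR adjusted p = 5.90e-05), AIFM1 by 1.49 ± 0.10 (edgeR adjusted p = 1.93e-05) and the initiator CASP10 by 1.78 ± 0.17 (edgeR adjusted p = 9.98e-05).

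SK-MEL-28 had 3 of 6 listed inhibitors of apoptosis higher and 2 lower. BIRC7, the melanoma inhibitor of apoptosis also called livin, had 5629 and 11235 counts in SK-MEL-28 against 24 and 35 in A375, a log2 difference of 8.33 ± 0.17 (SE, edgeR adjusted p = 2.34e-07). Its log2 ratio of siLINC00622 over siNC was 0.97 (0.92 to 1.01) for SK-MEL-28 and 0.31 (-0.46 to 1.14) in A375, with an edgeR adjusted p of 0.0699 across the lines. BIRC3 had -3.49 ± 0.22 (edgeR adjusted p = 1.52e-05) and BIRC2 -0.92 ± 0.10 (edgeR adjusted p = 0.000219) between the lines, and both are ubiquitin ligases of the TNF pathway. SK-MEL-28 had 2 of 8 listed genes of the death receptor pathway higher and 4 lower. TNFRSF10A, a TRAIL receptor, had 17 and 10 counts in SK-MEL-28 against 824 and 1009 in A375, a log2 difference of -5.89 ± 0.24 (edgeR adjusted p = 1.81e-06). TNFRSF10B, the other TRAIL receptor, had -1.70 ± 0.09 (edgeR adjusted p = 6.37e-06), and FAS had -2.65 ± 0.20 (edgeR adjusted p = 3.06e-05).

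**Figure D5:**
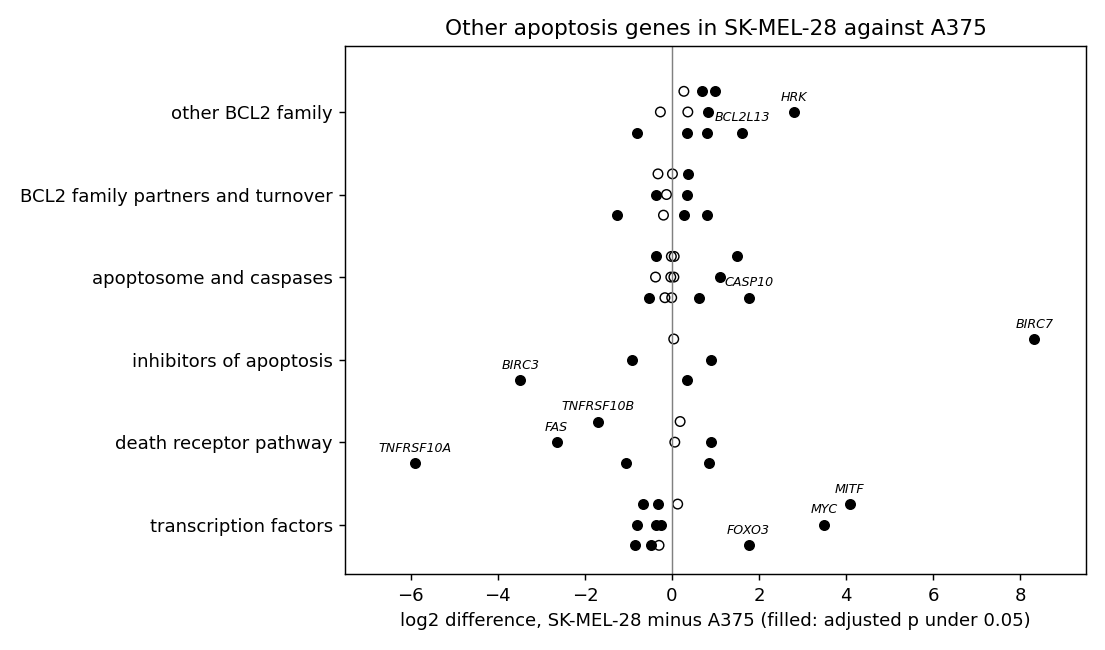
Log2 difference of SK-MEL-28 minus A375 for the genes of 6 further apoptosis lists, 1 point per gene, filled where the edgeR adjusted p was under 0.05, with names where the absolute difference was over 1.5. BIRC7 lies farthest to the right at 8.33 and TNFRSF10A farthest to the left at -5.89.

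Of 12 transcription factors known to act on these genes, 3 were higher in SK-MEL-28 and 7 lower. The higher ones were MITF and MYC, which had a log2 difference of 3.49 ± 0.11 (SE, edgeR adjusted p = 6.02e-07), and FOXO3, a known activator of BCL2L11, which had 1.76 ± 0.10 (edgeR adjusted p = 9.13e-06). In all 6 lists together 0 genes were called for the treatment. To show which genes shared the pattern of a member, the distance between log2 CPM values centred over the 4 libraries was taken over 11530 genes with at least 50 counts in each. BCL2A1 itself, with 21 and 13 counts in A375, lies under this minimum, so genes as low as it in A375 could not be among its neighbours. Closest to BCL2A1 were BHLHE41, MLPH and CEACAM1, at distances of 0.33, 0.46 and 0.63, and their log2 differences between the lines were 6.35, 5.91 and 5.97. These differences are part of the distance, so their likeness to that of BCL2A1 follows from the choice. Their log2 ratios of siLINC00622 over siNC were -0.52, 0.09 and 0.28 in SK-MEL-28, against -0.06 for BCL2A1. In A375 they were -0.80, -0.46 and -0.13, against -0.81. BHLHE41 is a transcriptional repressor of the clock and MLPH, melanophilin, carries pigment granules. Closest to BBC3, chosen because the smaller of its ratios in the lines was the largest among members with 1 sign in both, were AMOTL1, SRD5A1 and STAG3L2, each at a distance between 0.07 and 0.08.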

How the data were processed

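RNA of A375 and SK-MEL-28 cells was enriched for poly(A) and sequenced as paired-end reads, with 1 library per group. The authors deposited raw counts per gene, CPM scaled to the library total, and FPKM and TPM scaled for gene length. The submitters' processing notes name HISAT2, HISAT, TopHat2, Bowtie2 and the build hg19 without their roles, and the counting and annotation are not given in the sources used here. Positions and sequences come from GENCODE 29 and RefSeq on GRCh38, matched by Ensembl identifier or symbol.

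Library totals were count divided by CPM. Within a line, counts were scaled by TMM (edgeR 4.0.16, R 4.3.3) with a prior count of 2, and a call meant past 1.5-fold with at least 10 counts. Across all 4 libraries, the quasi-likelihood test of edgeR was fitted to the whole table with the line and the treatment as terms, with Benjamini-Hochberg adjustment and a threshold of 0.05. The SE was derived from the F statistic. DESeq2 1.42.0 and limma 3.58.1 were alternatives, and the fit was tested on simulated data. Python 3.11.15 was used otherwise.

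The members, lists and tests were chosen with earlier results of these data known. Genes of the 6 lists were named if they had the 3 largest called differences between the lines, or lay past 1.5-fold with 1 sign in A375 and SK-MEL-28 alike and had 50 counts or more in each library. Some genes of the lists are counted in them but not reported by name here.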

Additional observations from a re-analysis of the deposited data

Results flagged for a closer look

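PMAIP1 had ratios of siLINC00622 over siNC of opposite sign in the lines with both counting intervals apart from 0. For SK-MEL-28 it was 0.45 on the log2 scale, against -0.23 for A375. The difference between the lines was not tested, since 1 library per group leaves no error for it.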

How the results depend on the processing

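All 9 members called between the lines were called, and 0 members were called for the treatment, under each of the 7 alternatives of both fits, except that DESeq2 gave BMF and BBC3 no adjusted p for the treatment. Without TMM factors the median log2 difference of all genes between the lines moved by -0.17. Within A375, 1 member instead of 2 was past 1.5-fold with TMM over all 4 libraries and with at least 50 counts, and 0 were on the log2(FPKM + 1) scale and with a fold threshold of 2. The number of all genes called for the treatment, 75, depended on the fit. It was 1 with library totals, 121 without a filter, 0 with at least 50 counts, 0 with no cell line block, 305 with DESeq2 and 1 with limma, so the members were read by their values. The cause of these differences was not tested. The log2 balance, for SK-MEL-28 siNC, SK-MEL-28 siLINC00622, A375 siNC and A375 siLINC00622 in this order, was 0.91, 0.74, 1.60 and 1.44 by CPM, which are not per length and place A375 above SK-MEL-28. It was 0.024, -0.18, -2.36 and -2.32 without MCL1, 1.43, 1.13, 1.53 and 1.53 without BAX, and 2.51, 2.29, 2.41 and 2.43 with the effectors left out. The line was the block of the test of the treatment. With 1 library per group no replicate could be left out, and values within a treatment stand in the report. Depth limited BCL2A1 in A375 most.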
